A study of Danio rerio with 7 samples.

Results

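The cells described here are ventricular cardiomyocytes of hmga1a-/- zebrafish, split by whether an nppa transcript was read in the cell. A well of a mutant plate was a member if it held at least 1000 transcripts outside spike-ins and genes with a mitochondrial symbol. MYL7, a cardiac myosin regulatory light chain gene used here to mark cardiomyocytes, also had to make up at least 2% of them. Each such cell was thinned at random to 1000 transcripts. It was called nppa-positive with at least 1 nppa transcript left and nppa-negative with 0. The rule gave 481 mutant cardiomyocytes, of which 146 were nppa-positive (40, 23, 42 and 41 in mutant plates 1 to 4) and 335 were nppa-negative (69, 54, 126 and 86). They came from 132, 85, 175 and 142 wells of mutant plates 1 to 4 that passed the transcript minimum, of 384 wells each. In the whole series, with the wild-type plates, 1033 of 2688 wells passed it, and 952 of these were cardiomyocytes by the same rule. The members were chosen by their measured nppa and MYL7 levels, so MYL7 and the nppa transcripts used for the split are given as descriptions with no test. nppa was left out of the fits across genes, and only its transcripts in a second draw, which the split did not use, were tested.

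Cells were taken from adult ventricles 7 days after cryoinjury, in which part of the ventricle is frozen. The mutant groups carried Tg(nppa:mCitrine);hmga1a-/- (4 plates), and the plates set beside them carried Tg(nppa:mCitrine);hmga1a+/+ (3 plates, called wild type), with 12 hearts used per genotype. All cells, on both sides of the split, had been sorted for high signal of a fluorescent reporter driven by the nppa promoter, named mCitrine in the series text and mCherry in the sorting protocol. The nppa-negative cells are therefore cells in which no nppa transcript was read, not cells shown to lack nppa. Plates hold 1 cell per well, and the same 384 well names recur in every plate as positions, not as shared cells. The labels do not tie plates to animals. A p-value below is therefore a statement about plate-to-plate spread, and that spread may be technical.

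The gene nppa encodes atrial natriuretic peptide and its neighbour nppb encodes B-type natriuretic peptide, hormones that lower blood pressure and cardiac load. In the adult zebrafish ventricle nppa is low at rest and is switched on after injury in the border zone, the rim of surviving muscle beside the wound. Border-zone cardiomyocytes are known to lower part of their sarcomere and oxidative programme, to raise glycolytic and cytoskeletal genes and to re-enter the cell cycle. Hmga1a is a high mobility group protein that binds chromatin.

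The deposited tables held 310267 to 597668 estimated transcripts outside spike-ins per mutant plate and 374229 to 808070 per wild-type plate. The median depth of the cardiomyocytes before thinning was 1830 to 2544 transcripts per mutant plate and 1509 to 2743 per wild-type plate. Cardiomyocyte genes were present in all 4 mutant plates: myoglobin (mb) had 3976 to 7231 thinned transcripts per plate, the light chain gene cmlc1 had 1508 to 5659 and TNNT2, cardiac troponin T, had 715 to 1948. Markers of other heart cells were at or near 0. The endothelial list summed to 0 transcripts in nppa-positive and 2 in nppa-negative cells, with TIE1, FLI1 and cdh5 at 0. The fibroblast and epicardial list summed to 0 and 1, the leukocyte list to 2 and 6 with ptprc and SPI1 at 0, and the thrombocyte list to 0 and 1. No erythrocyte marker matched a gene. hmga1a itself had 5, 2, 3 and 2 thinned transcripts in mutant plates 1 to 4 (45.9, 26.0, 17.9 and 15.8 CPM, counts-per-million) against 2, 26 and 15 in wild-type plates 1 to 3 (21.7, 134.7 and 80.7 CPM). Mutant plates 1 and 2 were thus above wild-type plate 1. Which part of hmga1a is altered is not stated in the labels, and these transcripts are 3′ tags, so this level cannot serve as a check of the genotype label.

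Most nppa-positive cells rested on a single transcript. Of the 146, 85 held 1 nppa transcript, 41 held 2 and 20 held 3 or more, with a maximum of 8. The mean over all cells was 0.697, 0.558, 0.387 and 0.504 nppa transcripts per 1000 in mutant plates 1 to 4. The variance was 2.48, 1.81, 1.70 and 2.01 times the mean, whereas counts drawn from an even level would give a ratio near 1. Before thinning, 246 of the 481 cells had a deposited nppa value above 0, and 100 of these fell on the negative side. Over 5 random thinnings, 51 cells were positive each time, 254 never, and 176 changed side. The MYL7 threshold lay in a thin stretch of the data, with 10 mutant cells just inside at 2 to 2.5% MYL7 and 10 wells just outside at 1.5 to 2%.

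**Figure D1:**
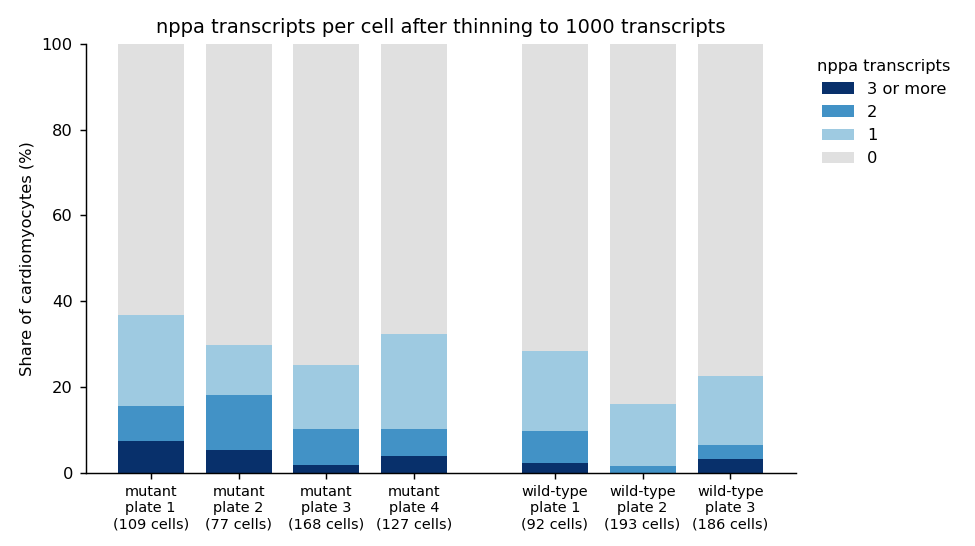
Share of cardiomyocytes (%, stacked to 100) with 3 or more, 2, 1 or 0 nppa transcripts after thinning to 1000 transcripts, for 4 mutant and 3 wild-type plates, with the number of cells under each bar. Cells with 0 make up 63.3 to 75.0% in mutant plates and 71.7 to 83.9% in wild-type plates.

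A larger share of mutant than of wild-type cardiomyocytes was nppa-positive on average, but the plates of both genotypes overlapped. The share was 36.7%, 29.9%, 25.0% and 32.3% in mutant plates 1 to 4, with Wilson 95% intervals from 19.1 to 46.1% that cover counting error only, and 28.3%, 16.1% and 22.6% in wild-type plates 1 to 3. The mean was 31.0 ± 4.88% in mutant plates (SD, n = 4) and 22.3 ± 6.11% in wild-type plates (SD, n = 3). The difference was 8.66 percentage points, given as a description. Within sequencing run 1 (runs were inferred from deposited names) it was 5.02 points and within run 2 it was 9.32 points. Without thinning the share was 51.4 ± 5.58% in mutant plates (n = 4) and 38.0 ± 3.78% in wild-type plates (n = 3). Among wells that failed the MYL7 minimum, 7 of 53 mutant wells (13.2%, Wilson interval 6.55 to 24.8%) and 2 of 28 wild-type wells (7.14%, 1.98 to 22.7%) held an nppa transcript, at median depths of 2248 and 2430 transcripts.

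In transcripts that the split had not used, nppa was again higher in nppa-positive cells of all 4 plates. A second, separate draw of 1000 transcripts was taken from the wells with at least 2000, which left 28, 15, 26 and 19 positive cells and 45, 31, 76 and 35 negative cells in mutant plates 1 to 4. In that draw nppa averaged 0.857, 0.933, 0.615 and 1.00 transcripts per cell in nppa-positive cells, against 0.378, 0.452, 0.250 and 0.229 in nppa-negative cells. Every positive value lay above every negative value. The means were 0.852 ± 0.168 in nppa-positive and 0.327 ± 0.106 in nppa-negative cells (SD, n = 4 plates each), and the exact two-sided sign-flip permutation test gave p = 0.125, the smallest that 4 plates allow. The second draw held nppa in 49.6 ± 5.05% of positive and 25.6 ± 5.29% of negative cells. Cells called negative thus often held nppa among the transcripts not used for the split.

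Among all tested genes nppb had the highest log2 fold change between nppa-positive and nppa-negative cells. It stood at 587.1, 674.8, 112.7 and 545.0 CPM (here TMM-scaled) in nppa-positive cells of mutant plates 1 to 4, against 244.3, 144.6, 87.0 and 252.0 CPM in nppa-negative cells. The positive side was higher in all 4 plates, with the smallest gap in plate 3, although the plate 3 positive value lies below 3 of the negative values. The counts behind these levels were 23, 16, 5 and 22 transcripts in positive and 16, 8, 11 and 21 in negative cells. The log2 fold change was 1.27 (SE 0.34), with an unadjusted p of 0.00215 and an adjusted p of 0.509 in edgeR's quasi-likelihood test, so it was not called. Within run 1 the difference was 1.58 and within run 2 it was 0.65 on the log2 scale. Cells with an nppb transcript made up 20.4 ± 10.8% of nppa-positive and 12.0 ± 4.94% of nppa-negative cells (SD, n = 4 plates each). In the second draw, nppb averaged 0.512 ± 0.384 transcripts per cell in nppa-positive and 0.121 ± 0.060 in nppa-negative cells, again higher in 4 of 4 plates.

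The nppb level followed the nppa count of the cell unevenly. In cells with 2 or more, 1 and 0 nppa transcripts, nppb averaged 1.12, 0.174 and 0.232 transcripts per cell in mutant plate 1. The same 3 classes averaged 1.07, 0.111 and 0.148 in plate 2, then 0.177, 0.080 and 0.0873 in plate 3. In plates 1 to 3 the cells with 2 or more were highest and the cells with 1 were no higher than those with 0. Plate 4 differed, with 0.308, 0.643 and 0.244. No test was made between these classes, and the highest class holds 13 to 17 cells per plate. Few of these cells held nppb in plates 2 and 3. In plate 2, 13.04% of the 23 nppa-positive cells held all 16 nppb transcripts of that side. In plate 3, 9.524% of the 42 nppa-positive cells held all 5. The share was higher in plates 1 and 4. The nppb level and class pattern of plates 2 and 3 thus rested on very few cells.

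**Figure D2:**
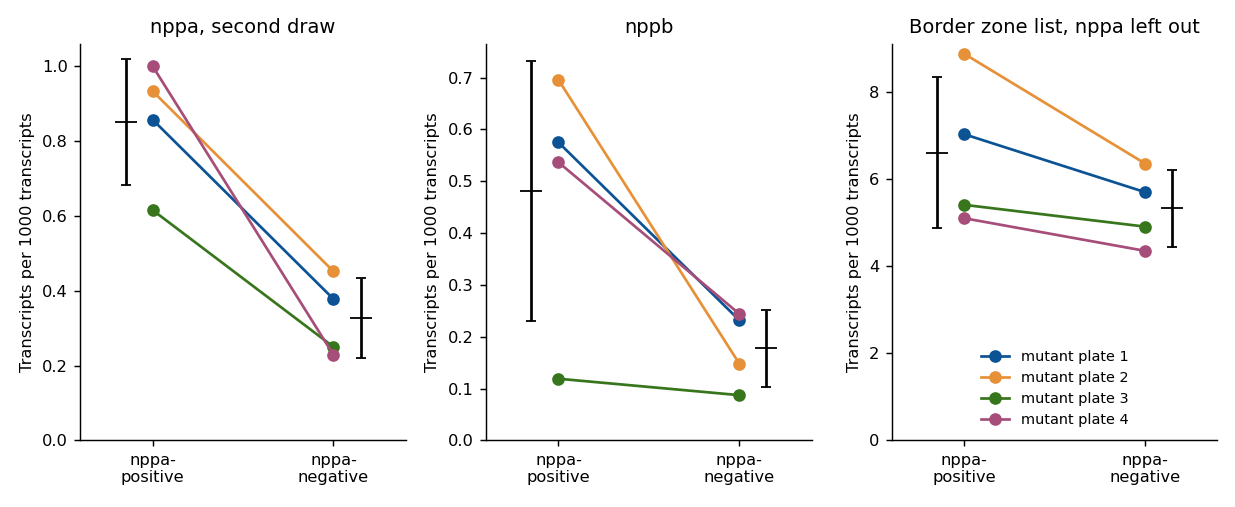
Transcripts per 1000 transcripts in nppa-positive (left) and nppa-negative cells (right) for nppa in the second draw, nppb, and the sum of the border zone list without nppa. Lines join both sides of a mutant plate, and black marks give mean ± SD over 4 plates; each of the 4 lines is higher on the positive side in all 3 panels.

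The border zone list, which here held 20 matched genes besides nppa, summed to 6.60 ± 1.73 transcripts per cell in nppa-positive cells and 5.33 ± 0.88 in nppa-negative cells (SD, n = 4 plates each). It was 7.03, 8.87, 5.41 and 5.10 in the positive cells of mutant plates 1 to 4, against 5.70, 6.35, 4.91 and 4.35 in the negative cells. The positive side was higher in 4 of 4 plates, while the 2 sides overlapped across plates. Of the difference of 1.27, nppb made up 0.304 and the small heat shock protein gene HSPB1 made up more. HSPB1 had 117, 98, 68 and 56 transcripts in positive cells of plates 1 to 4, against 168, 142, 212 and 134 in the more numerous negative cells. Per cell it was higher on the positive side in plates 1 and 2 and lower in plates 3 and 4. Over the alternatives tried the difference of the summed list ranged from 0.211 to 2.08. The lowest value was found with MYL7 of at least 5%, where the exact sign-flip permutation test gave p = 0.625. Of the list's 7 genes with enough counts to test, 6 had a positive fold change and the median was 0.16. Over all 517 genes tested 48.4% were positive and 51.6% negative, with a median of -0.01. Of the 7, 1 was higher in all 4 plates (nppb) and 1 was lower in all 4 (SYNPO2L). Over all genes these shares were 5.42% and 6.96%. None of the 7 was called (0% over all genes), and nppb and DES had an unadjusted p under 0.05. The desmin gene DES (ENSDARG00000058656), for an intermediate filament of muscle, averaged 859.3 ± 389.1 CPM in positive and 569.9 ± 172.8 CPM in negative cells (log2 fold change 0.61, SE 0.24). It was higher in 3 of 4 plates, and its difference was 0.03 within run 1 and 0.96 within run 2. Over the alternatives tried its log2 fold change ranged from 0.05 to 1.04. BAG3, a co-chaperone of the sarcomere, had a log2 fold change of 0.89 (SE 0.52), and it was -0.17 within run 1 and 1.45 within run 2. HSPB1 stood at 0.16, MUSTN1 at 0.09, the actin-binding gene xirp1 at 0.09 and SYNPO2L at -0.20, with standard errors of 0.16 to 0.32.

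Across all genes, no gene was called between nppa-positive and nppa-negative mutant cells. Of 9094 genes with a thinned transcript, 517 had enough counts to test, and 0 (0%) had an adjusted p under 0.05 in edgeR's test on the 8 plate-and-side sums with the plate as a block. At an unadjusted p under 0.05 there were 25 genes (4.84%), 12 higher (2.32%) and 13 lower (2.51%). DESeq2 called 0 genes with 9 at an unadjusted p under 0.05, and limma voom called 0 with 27. A positive difference in all 4 plates was found for 28 genes (5.42%) and a negative one for 36 (6.96%). The median standard error was 0.235 on the log2 scale, and the values given for single genes below are descriptions of genes that did not pass the test.

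**Figure D3:**
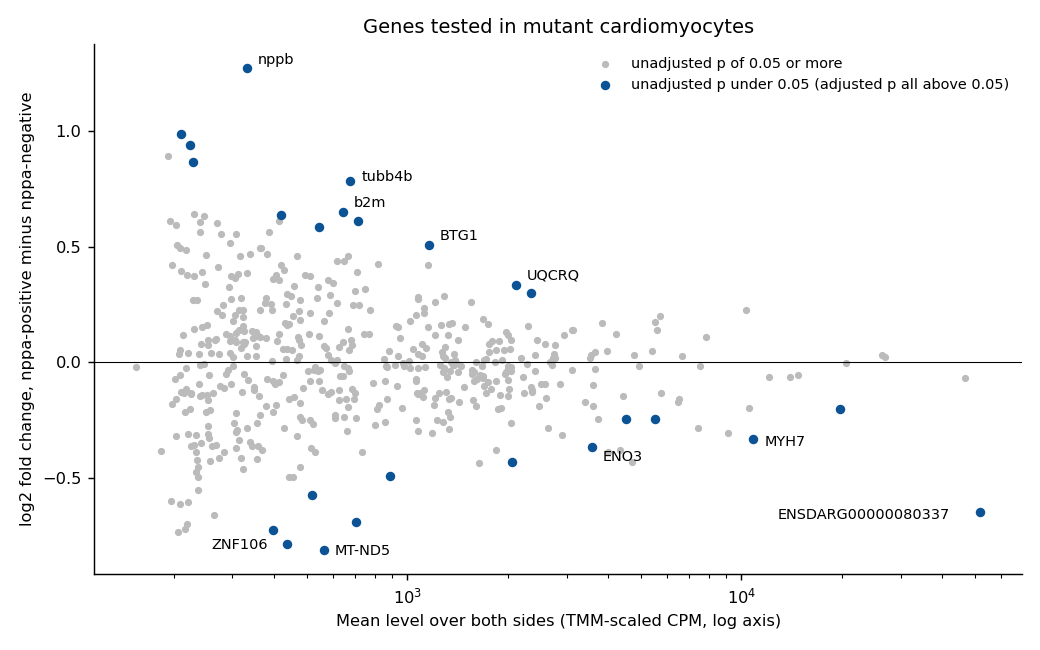
Log2 fold change of each tested gene other than MYL7 (nppa-positive minus nppa-negative) against its mean level (TMM-scaled CPM, log axis) in mutant cardiomyocytes. Blue points have an unadjusted p under 0.05 and none an adjusted p under 0.05; nppb is the highest point at 1.27 and ENSDARG00000080337 the point furthest right.

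Genes higher in nppa-positive cells of every plate included BTG1, an antiproliferative factor of the BTG family, and tubb4b, a beta-tubulin. BTG1 stood at 1736, 1645, 1037 and 1065 CPM in nppa-positive cells of mutant plates 1 to 4, against 1206, 1084, 703.9 and 839.8 CPM in nppa-negative cells (log2 fold change 0.51, SE 0.15, adjusted p = 0.732 in edgeR). The levels of both sides overlapped across plates, since the negative cells of plates 1 and 2 stood at or above the positive cells of plates 3 and 4. tubb4b stood at 1404, 927.8, 405.8 and 668.9 CPM in positive cells, against 473.2, 849.5, 253.1 and 431.9 CPM in negative cells (0.79, SE 0.25). Its gap in plate 1 was the widest. ALDOC, a brain-type aldolase of glycolysis, had a log2 fold change of 0.58. The respiratory chain genes UQCRQ of complex III and cox4i1l of complex IV had 0.33 and 0.30. All 3 were higher on the positive side in 4 of 4 plates. So were ENSDARG00000041088, which has no symbol, at 0.94 (SE 0.38) and si:ch1073-429i10.3 at 0.87 (SE 0.37). ISCU (ENSDARG00000026582), a scaffold for iron-sulphur cluster assembly, had 0.99 (SE 0.41) and was higher in 3 of 4 plates.

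On the lower side, ZNF106, a zinc finger gene, stood at 331.8, 253.0, 293.1 and 396.4 CPM in nppa-positive cells of mutant plates 1 to 4, against 427.4, 560.3, 569.5 and 671.9 CPM in nppa-negative cells. Each positive value lay below all 4 negative values, and the log2 fold change was -0.79 (SE 0.26, adjusted p = 0.761 in edgeR), against -0.68 (SE 0.23) in wild-type plates. SOD2, the superoxide dismutase of mitochondria, had -0.57 (SE 0.24), palm2akap2 had -0.72 (SE 0.30) and the unnamed gene ENSDARG00000042049 had -0.69 (SE 0.23). All 3 were lower on the positive side in 4 of 4 plates. Over the alternatives tried ZNF106 ranged from -1.06 to -0.075, the latter with thinning seed 5. SOD2 ranged from -0.87 to 0.17, palm2akap2 from -1.02 to -0.38 and ENSDARG00000042049 from -1.08 to 0.03.

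The gene b2m, for the invariant light chain of MHC class I, was the one gene that passed the test on the higher side when genes were read from transcripts the split had not used. In the first draw it averaged 801.3 ± 279.5 CPM in nppa-positive and 487.5 ± 156.4 CPM in nppa-negative cells, higher in 3 of 4 plates (log2 fold change 0.65, adjusted p = 0.936 in edgeR). In the second draw, over 383 tested genes, its log2 fold change was 1.22 (adjusted p = 0.0457 in edgeR). Over all alternatives it ranged from 0.04 to 1.22, and no other alternative called it. Wells with at least 2000 transcripts, thinned to 2000, gave 0.23 (adjusted p = 0.969 in edgeR). Cells with nppa in both draws against neither also gave 0.23. With all transcripts of the cells summed it was 0.93 (adjusted p = 0.678 in edgeR). Leukocytes express b2m too, and their marker list summed to 2 transcripts in the 146 positive and 6 in the 335 negative cells. Whether leukocyte content had a part in the b2m values was not tested.

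Of 19 tested sarcomere genes 13 had a negative fold change, the median was -0.16, and 6 were lower in all 4 plates. Over all genes 51.6% had a negative fold change and 6.96% were lower in all 4 plates. At an unadjusted p under 0.05, 4 sarcomere genes were lower (2.51% over all genes), and none was called. MYH7, a myosin heavy chain gene of heart muscle, stood at 8985, 8013, 10167 and 11372 CPM in nppa-positive cells of mutant plates 1 to 4, against 11419, 9868, 13565 and 13569 CPM in nppa-negative cells. It was lower in every plate, and its log2 fold change was -0.33 (SE 0.09, adjusted p = 0.509 in edgeR). In wild-type plates MYH7 was also lower in all 3 plates, with -0.26 (SE 0.11), and the difference between genotypes was -0.04 (SE 0.14). The troponin I gene TNNI1 (ENSDARG00000052708) stood at 5037 ± 434 CPM in positive and 5983 ± 241 CPM in negative cells (log2 fold change -0.25), and TNNT2 at 9839 ± 1734 and 11233 ± 1292 CPM (-0.20). The cardiac actin gene actc1a had -0.20, whereas cmlc1 had 0.02 and tcap, telethonin of the Z-disc, had 0.46. The summed list made up 113.8 ± 15.2 transcripts per cell in positive and 119.6 ± 16.1 in negative cells. It was higher on the positive side in 1 of 4 plates, plate 1 (110.3 against 105.9). MYL7, which set membership, stood at 57011 ± 4340 CPM in positive and 58597 ± 2893 CPM in negative cells.

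No gene of the metabolic lists was called. Of 15 tested glycolysis genes 5 had a positive fold change (median -0.06). ALDOC and the muscle enolase gene ENO3 were the 2 at an unadjusted p under 0.05, at 0.58 and -0.37. The nuclear-encoded respiratory chain list had 46 of 76 genes with a positive fold change (median 0.06), with 12 higher and 5 lower in all 4 plates, beside 48.4% positive, 5.42% higher and 6.96% lower in all 4 plates over all genes. It summed to 91.2 ± 6.60 transcripts per cell in nppa-positive and 85.6 ± 5.37 in nppa-negative cells, higher in 3 of 4 plates. The difference of 5.55 was 2.23 without plate 3 and 2.02 with a mitochondrial share of at most 10%. Tricarboxylic acid cycle genes split 8 to 8 (median 0.00). SDHB, the iron-sulphur subunit of succinate dehydrogenase, had 0.34 and ogdha, of the 2-oxoglutarate dehydrogenase complex, had -0.39. Fatty acid oxidation genes had 6 of 9 positive (median 0.10), with hadhaa, of the trifunctional protein, at 0.49 and the electron transfer flavoprotein gene ETFB at -0.27. Cytosolic ribosomal protein genes had 25 of 70 positive (median -0.04), and 1 was higher and 4 were lower in all 4 plates. RPS26 (ENSDARG00000037071) and RPS16 were among those lower in all 4, at -0.39 and -0.29.

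**Figure D4:**
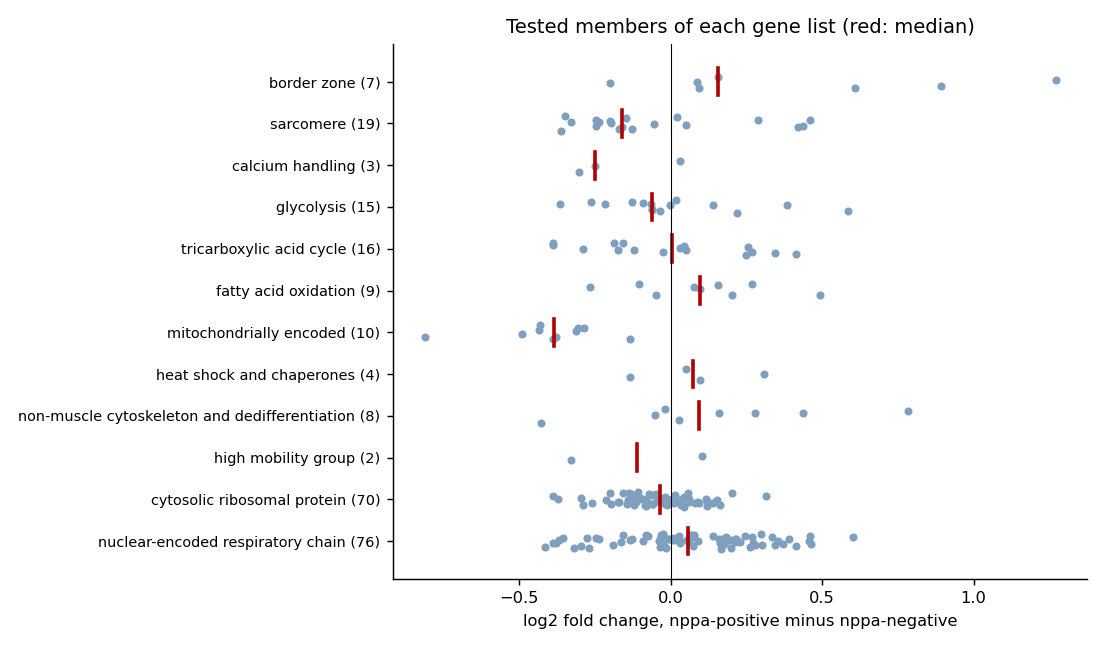
Log2 fold change (nppa-positive minus nppa-negative) of each tested member of the gene lists with at least 2 tested members, with the number tested in brackets and the list median in red. The border zone median is 0.16, the sarcomere median -0.16 and the mitochondrially encoded median -0.38.

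Of the other lists, the non-muscle cytoskeleton and dedifferentiation list had 5 of 8 genes positive (median 0.09) and summed to 8.68 ± 1.30 transcripts per cell in nppa-positive and 7.41 ± 0.74 in nppa-negative cells, higher in 4 of 4 plates. The difference of 1.26 ranged from 0.323 to 1.42 over the alternatives tried and was lowest with MYL7 of at least 5%. Within the list CFL1, cofilin, had 0.44 and lgals2a had -0.43. Heat shock and chaperone genes had 3 of 4 positive (median 0.07), with hspb6 at 0.31 and HSPA8 (ENSDARG00000068992) at -0.14. Calcium handling genes had 1 of 3 positive (median -0.25), with CASQ2, the calcium-binding protein of the sarcoplasmic reticulum, at -0.25 and its partner trdn at -0.30. Both tested high mobility group genes, hmgn6 and hmgn7 of the nucleosome-binding family, stood at 0.10 and -0.33. MEF2A, a muscle transcription factor, was the one tested cardiac transcription factor, with 0.38 and a higher level on the positive side in 4 of 4 plates.

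No cell cycle or immediate early gene had enough counts to test. The 22 cell cycle genes summed to 57 thinned transcripts in the 146 nppa-positive cells and 65 in the 335 nppa-negative cells. Per cell this was 0.325, 0.478, 0.429 and 0.366 in the positive cells of mutant plates 1 to 4, against 0.246, 0.278, 0.103 and 0.233 in the negative cells, so that every positive value lay above every negative one. The mean difference of 0.184 ranged from 0.0177 to 0.312 over the alternatives tried, positive in all of them. Most of the summed transcripts in the main setting came from hmgb2b, a chromatin protein, and PCNA, the sliding clamp of replication. These genes had 17 and 12 transcripts in positive and 18 and 18 in negative cells. plk1 had 4 in positive and 0 in negative cells, all 4 in plate 3, while MCM6, of the replicative helicase, had 0 and 10. mki67, CCNB1 and CCNA2 were at 0 on both sides. Immediate early genes summed to 140 transcripts in the 146 positive and 264 in the 335 negative cells, and FOS alone to 30 and 60. Per cell the immediate early list averaged 0.985 ± 0.487 transcripts in positive and 0.870 ± 0.409 in negative cells (SD, n = 4 plates each). The positive side was higher in 2 of 4 plates in this draw. Its mean difference of 0.115 was 0.397, 0.322, 0.169 and 0.386 with thinning seeds 2 to 5.

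Mitochondrially encoded genes were lower in nppa-positive cells chiefly in plate 1. All 10 tested genes of the 13 had a negative fold change, from -0.81 to -0.13 with a median of -0.38, and none was called or lower in all 4 plates. All 10 were lower in plate 1, 2 in plate 2, 9 in plate 3 and 9 in plate 4. MT-ND5, a subunit of complex I, stood at 331.8, 295.2, 315.6 and 668.9 CPM in nppa-positive cells of mutant plates 1 to 4, against 870.1, 723.0, 806.8 and 491.9 CPM in nppa-negative cells (log2 fold change -0.81, SE 0.31). It was lower in plates 1 to 3 and higher in plate 4. MT-ND3 of the same complex had -0.49 (SE 0.23). The summed list was 31.7, 52.0, 37.4 and 28.2 transcripts per thinned cell on the positive side, against 66.9, 42.4, 41.6 and 31.4 on the negative side. Without plate 1 the mean difference was 0.718 in favour of the positive side, against -8.24 with it, and without wells over 10% mitochondrial it was 0.117 over all 4 plates. The median mitochondrial share of the unthinned wells was 1.89 ± 0.97% in positive and 1.71 ± 0.71% in negative cells.

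The unnamed gene ENSDARG00000080337, the most abundant tested gene without a symbol, had the smallest p of all 517 genes. It stood at 45257, 37831, 27976 and 45511 CPM in nppa-positive cells of mutant plates 1 to 4, against 111318, 45854, 46942 and 54830 CPM in nppa-negative cells. It was lower in every plate, and each positive value lay below all 4 negative values. The log2 fold change was -0.65 (SE 0.13, unadjusted p = 0.000272, adjusted p = 0.141 in edgeR), and within run 1 and run 2 it was -0.79 and -0.51. Without plate 1, whose negative cells held more than 2 times the level of any other plate's, it was -0.42 and passed the test (adjusted p = 0.0220 in edgeR). In the second draw it was -0.52 and also passed. Over 25 alternatives it ranged from -1.27 to -0.11 and passed in 5. With a mitochondrial share of at most 10% it was -0.11 (adjusted p = 0.990 in edgeR), and with thinning seed 3 it was -0.20 (adjusted p = 0.972 in edgeR). Mitochondrial genes were recognised by symbol, so this gene was counted as non-mitochondrial. Its transcripts thus counted towards the transcript minimum, the thinning and the library size. Whether it is mitochondrially encoded was not determined here. In wild-type plates it stood at -0.13 (SE 0.30), lower in 1 of 3 plates, and the difference between genotypes was -0.49 (SE 0.36).

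**Figure D5:**
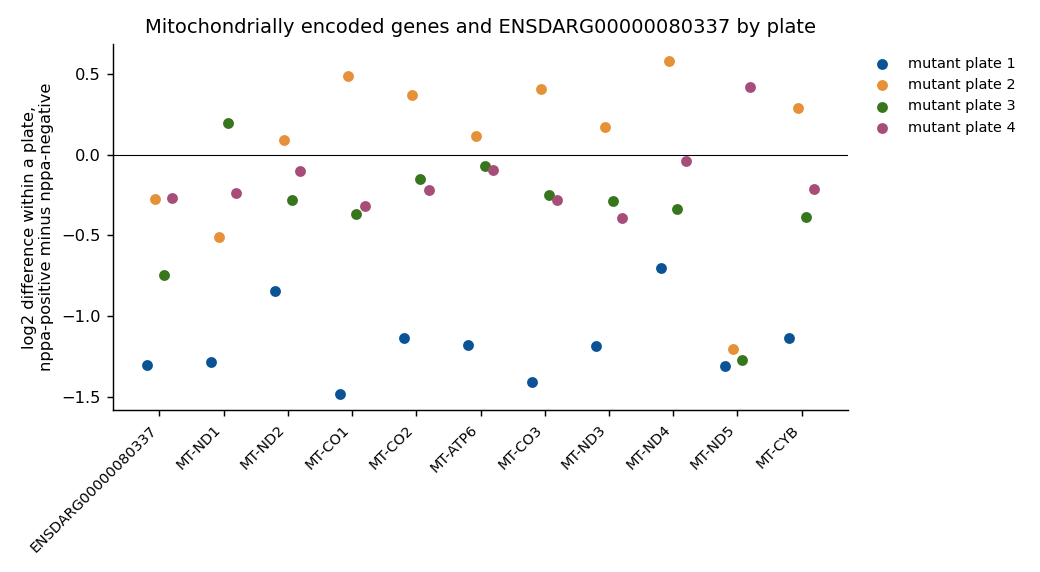
Log2 difference within each mutant plate (nppa-positive minus nppa-negative) for ENSDARG00000080337 and the 10 tested mitochondrially encoded genes. Points of ENSDARG00000080337, which has no symbol, are below 0 in all 4 plates. The genes with a mitochondrial symbol are furthest below 0 in plate 1, and 8 of 10 are above 0 in plate 2.

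Before thinning, the median depth was 2430 ± 416 transcripts per well in nppa-positive and 2246 ± 297 in nppa-negative cells (SD, n = 4 plates each). The difference was 29.3, 90.5, 547.4 and 70.6 transcripts in mutant plates 1 to 4. Its mean of 184.4 was 63.5 without plate 3, and it was -113.4 with thinning seed 5. Estimated spike-in transcripts per well averaged 1571 ± 861 and 1674 ± 824, lower on the positive side in 4 of 4 plates. After thinning to equal depth, 371.1 ± 15.8 genes were detected in positive and 357.5 ± 5.61 in negative cells, more in 3 of 4 plates. Whether these differences had a part in the gene values above was not tested. Of 23 measures compared between the sides over plates, the smallest exact sign-flip p was 0.125, which is 0.240 after Benjamini-Hochberg adjustment.

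The split was then made in the same way in 471 wild-type cardiomyocytes, 99 nppa-positive and 372 nppa-negative. No gene was called there either, with 26 of 539 genes (4.82%) at an unadjusted p under 0.05. A test of the difference between genotypes called 0 of 492 genes, with 15 (3.05%) at an unadjusted p under 0.05 in edgeR. nppb had a log2 fold change of 0.43 (SE 0.48) in wild-type plates, against 1.27 (SE 0.34) in mutant plates. It had too few counts for the fit over 7 plates, and the exact permutation test of its per-cell difference, 0.304 in mutant and 0.043 in wild-type plates, gave p = 0.171, where the smallest p that 4 against 3 plates allow is 0.0571. The share of cells with nppb differed between sides by 8.49 points in mutant and by -0.42 points in wild-type plates. That contrast gave p = 0.0571 in the exact permutation test, or 0.788 after Benjamini-Hochberg adjustment over 23 measures. The smallest unadjusted p belonged to TTN (ENSDARG00000000563), a titin gene, with -0.13 in mutant and 1.22 in wild-type plates (difference -1.33, SE 0.39, adjusted p = 0.935 in edgeR). BTG1 had 0.51 in mutant and -0.19 in wild-type plates, and cox4i1l had 0.30 and -0.25, with the same adjusted p of 0.935 in edgeR. The cell cycle sum differed between sides by 0.184 transcripts per cell in mutant plates and by -0.0014 in wild-type plates, and the border zone sum by 1.27 and 0.21. Neither difference between genotypes passed the exact permutation test (p = 0.171 for both, 0.788 after Benjamini-Hochberg adjustment over 23 measures).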

How the data were processed

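Single cells were profiled by CEL-seq2 with UMIs and spike-ins, per the labels' protocols. The submitters' processing notes list BWA 0.6.2, whereas the genome build was not given in the sources used here. Deposited by the authors were estimated counts (transcripts for each gene in each well), which are not whole. All 857630 values above 0 (100%) matched, within 0.0051, a whole UMI number corrected for saturation of 4096 barcodes. They were rounded to whole numbers. Well selection and thinning to 1000 transcripts (without replacement, seed 1) were as stated above; mitochondrial genes, recognised by 13 symbols, were thinned at the same rate and kept outside the library size. Symbols came from a table of names covering 13087 of 16394 genes, and many are written in human style. How the counting treated near-identical gene copies is likewise unknown here, so their values are uncertain.

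Thinned transcripts were summed per plate and side and tested in R 4.3.3 with edgeR 4.0.16 (TMM, filterByExpr with a minimum count of 10, glmQLFTest, threshold 0.05 on the Benjamini-Hochberg adjusted p), with the plate as a block. The sums held 22957 to 126000 transcripts. Genotypes were compared by a side-by-genotype term over 14 sums of 7 plates. DESeq2 1.42.0 and limma 3.58.1 (voom) were run as alternatives. Single values over plates used exact permutation tests (two-sided as the smaller tail doubled). Both sides of a plate share 1 library, and their deviations correlated at 0.369, 0.174, 0.373 and 0.466 in mutant plates 1 to 4, so the plate number pairs them. Plate numbers follow the order of deposit and pair nothing between genotypes. Sequencing runs were inferred from a code in the names under which the plates were deposited. By that code run 1 held mutant plates 1 and 2 and wild-type plate 1, and run 2 the others.

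The members and gene lists were chosen with earlier results of these data known. Named genes were those called; since none was, the 20 with the smallest unadjusted p, all tested border zone genes and the 2 with the smallest p of each other list. Further sarcomere genes, lgals2a, MCM6, plk1 and other low-count genes were named after their values were seen. No doublet caller was run, as wells were sorted for 1 cell.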

Additional observations from a re-analysis of the deposited data

Results flagged for a closer look

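Dixon's test for a plate apart from the other 3 of its side was applied to 124 groups of 4 values, and chance alone flags about 1 in 20. It marked 7 values, of which 6 belong to plate 1. ENSDARG00000080337 in nppa-negative cells of mutant plate 1 stood apart both as 111318 CPM and as 105.7 transcripts per 1000. In nppa-positive cells of mutant plate 1, si:ch1073-429i10.3 stood apart at 433.9 CPM and trdn, triadin of the calcium release complex, at 765.8 CPM. In nppa-negative cells of mutant plate 1, hmgn7 was low at 213.7 CPM and RPS26 (ENSDARG00000037071) was high at 1023 CPM. MT-ND5 in nppa-positive cells of mutant plate 4 was high at 668.9 CPM.

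The gene si:ch1073-429i10.3 had a log2 fold change of 0.866, higher on the nppa-positive side in all 4 mutant plates, and of -0.38 in wild-type plates, lower in all 3. The test of the difference did not pass after adjustment, and with thinning seed 5 the mutant value was -0.69.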

How the results depend on the processing

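Between nppa-positive and nppa-negative mutant cells, 21 of 26 alternatives also called 0 genes in edgeR, DESeq2 or limma voom. Reading genes from the second draw called 2 (b2m higher, ENSDARG00000080337 lower). Without a filter on low counts 13 genes were called, all lower, among them MYH7, ENO3, MT-ND5 and ENSDARG00000080337. Fold changes of either sign moved down in that setting. MYH7 was -0.605 against -0.33 in the main setting, BTG1 0.231 against 0.506 and nppb 1.02 against 1.27. How far this shift made up the 13 calls was not tested. Run 2 plates alone called 1, and leaving out each plate called 0 to 1, which in each of these cases was ENSDARG00000080337. For the difference between genotypes, 25 of 27 alternatives called 0 genes. Cells with at least 2 nppa transcripts against 0 gave 10 (2 higher, 8 lower). Among them were tmsb4x, ENSDARG00000080337, MT-CO1, MT-CO2, MT-CO3, MT-ATP6, MT-ND4 and MT-CYB. The positive side then held only 9, 3 and 12 cells in wild-type plates 1 to 3. In mutant plates 1 to 4 it held 17, 14, 17 and 13 cells. Leaving out each plate gave 0 to 1, the 1 being ENSDARG00000080337 without wild-type plate 2. With no replicate block, that is without the pairing by plate, 0 genes were called in both comparisons, with 11 and 10 at an unadjusted p under 0.05. Separate results per run, nppa in both draws, leaving out ENSDARG00000080337 and a mitochondrial share of at most 10% were chosen after seeing the data.

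The nppa-positive share differed by 4.69 to 13.4 points over 17 alternatives, and the second draw of nppa by 0.438 to 0.650, all in the direction reported. Fold changes of nppb were 0.89 to 1.98 over the 21 alternatives in which it was fitted, with adjusted p of 0.12 to 0.9996. With MYL7 of at least 5% nppb was not among the genes fitted. Its difference per 1000 transcripts was then 0.168 (p = 0.75 in the exact sign-flip permutation test), against 0.304 in the main setting.

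Several differences between sides (nppa-positive minus nppa-negative, per 1000 transcripts unless stated) changed sign, and the cause was not tested. With other thinning seeds, the depth difference was -113.4 transcripts (seed 5) and glycolysis 0.768 (seed 5). Fatty acid oxidation was -0.183 and -0.0073 (seeds 2 and 5), calcium handling 0.128 (seed 4) and ribosomal proteins -0.0169, -1.53 and -5.08 (seeds 2, 3 and 4). The tricarboxylic acid cycle was -0.351, -0.875, -0.725 and -0.659 (seeds 2 to 5). With no MYL7 filter, the mitochondrial share was -0.238 points, the sarcomere list 2.70, glycolysis 3.41 and calcium handling 0.129. With nppa in both draws, mitochondrially encoded genes were 2.60, ribosomal proteins -1.20 and heat shock genes -0.0401. Without ENSDARG00000080337, ribosomal proteins were -1.77 and the tricarboxylic acid cycle -0.665. With a mitochondrial share of at most 10%, mitochondrially encoded genes were 0.117. Leaving out each plate gave -0.170 to 0.517 points for the mitochondrial share (negative without plate 2), -1.44 to 1.46 for glycolysis (positive without plate 2) and -3.97 to 3.49 for ribosomal proteins (negative without plate 2). It gave -14.2 to 0.718 for mitochondrially encoded genes (positive without plate 1), -0.0822 to 0.258 for immediate early genes (negative without plate 1) and -0.574 to 0.203 for calcium handling (positive without plate 4).

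Of the single genes, a sign change was counted where either value had an unadjusted p under 0.05. In the second draw ENSDARG00000042049 was 0.026 and SOD2 0.17 on the log2 scale. With a mitochondrial share of at most 10%, MT-ND5 was 0.076 and MT-ND3 0.052. MT-ND3 was also 0.044 when thinned to 2000 and 0.036 with MYL7 of at least 5%, and xirp1 was -0.80 when thinned to 2000. ENO3 was 0.006 with seed 2, and with seed 5 ALDOC was -0.066 and si:ch1073-429i10.3 -0.69. At these depths the median standard error of a gene was 0.235, and cell cycle and immediate early genes could not be tested singly.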
